A study of Mus musculus with 12 samples.

Results

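DNA replication and nucleotide synthesis genes were examined in RNA-seq of mouse bone marrow macrophages exposed to an antibody against integrin α5 (ITGA5). The set held 46 of the 54532 genes of the count table, chosen by symbol, with earlier results of these data known. They were grouped into 8 roles: origin recognition and licensing, the MCM helicase, helicase activation, polymerases and primase, the clamp and its loader, single-stranded DNA binding and Okazaki fragment joining, deoxynucleotide synthesis, and chromatin assembly with histone mRNA handling. All 46 passed the filter on low counts in every comparison, with at least 150 counts in each library for every one of them.

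The study used this culture to look for macrophage genes that depend on ITGA5, a subunit of the main fibronectin receptor, with and without its ligand on the dish. Marrow cells of wild-type C57BL/6J mice, 2 to 3 months old, were kept for 24 h in 15% fetal serum with 12 ng/ml CSF-1, the macrophage growth factor. The non-adherent cells were then reseeded for 48 h with 120 ng/ml CSF-1, and the adherent macrophages were passaged once, onto uncoated or fibronectin-coated plates, and grown to confluence. The 2 antibodies and 2 coatings made 4 groups with 3 libraries each, cells on uncoated plates given IgG or anti-ITGA5 (without fibronectin) and cells on coated plates given either (with fibronectin). IgG or the neutralizing antibody was given at 10 µg/ml for 24 h. All groups shared the genotype, CSF-1 and serum, which itself contains fibronectin, so the groups without fibronectin are cells on uncoated plastic and not cells free of the protein. The labels only number the libraries of a group 1 to 3. A figure legend of the paper describes 3 biologically independent experiments per group for this culture. How many mice gave the marrow is not given in the sources used here, so p-values measure the spread between these libraries.

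Counts on genes ranged from 12954342 to 22075432 per library. A library of anti-ITGA5 without fibronectin stood apart: replicate 2 had the fewest counts and the most genes detected (21123), and 1.02% of its counts fell on lincRNA genes against 0.464% to 0.593% in the other 11. Replicate 3 of that group had 0.438% of its counts on ribosomal RNA genes against 0.0282% to 0.0681% in the other 11. The macrophage label fitted the markers. The 8 macrophage markers summed to 6129 FPKM or more in every library, and those of neutrophils, erythroid cells, lymphocytes and fibroblasts to 4.53 FPKM or less, with Ly6g at 0 in all 12. Of the 3 megakaryocyte markers, Pf4 reached 358 to 692 FPKM, while Itga2b and Gp1ba stayed at 0.347 FPKM or less. Itga5 mRNA, which a neutralizing antibody need not change, lay between 44.5 and 53.1 FPKM and was not called in either antibody comparison (log2 fold change 0.15 and 0.075, adjusted p = 0.0906 and 0.273).

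Before a cell divides it copies its DNA once. In G1, the origin recognition complex with Cdc6 and Cdt1 loads the ring-shaped MCM helicase onto origins, a step called licensing. In S phase Cdc45 and the GINS complex turn that ring into an active helicase, primase and polymerases copy the strands, and the clamp Pcna, opened by replication factor C, holds the polymerases on DNA. Deoxynucleotides come from ribonucleotide reductase and thymidylate synthesis, and new histones are laid down behind the fork. Transcription of many of these genes is driven by E2F factors as cells leave G1. Bone marrow macrophages proliferate in response to CSF-1. Cycling of the cells was not measured in the data used here.

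The promoters of the set carried the letters that E2F factors are known to prefer more often than promoters at large. RefSeq promoter windows (GRCm38.p6, 250 bases before to 50 after a start) were matched for 38 of the 46 genes. The E2F words searched, on both strands, were TTTCCCGC, TTTGGCGC, TTTCGCGC and TTTGCCGC. They occurred in 15 of these 38 genes (39.5%) against 2.6% of all 27025 genes with a window. By role they stood in 3 of 4 matched licensing genes, 4 of 5 MCM genes, 4 of 7 polymerase and primase genes, in 1 gene each of helicase activation (of 3), the clamp and its loader (of 5), single-stranded DNA binding (of 5) and chromatin assembly (of 4), and in none of the 5 deoxynucleotide synthesis genes. The other words, also searched on both strands, were CCAAT (63.2% of the 38 against 41.1% of all genes), the CHR words TTTGAA and TTCGAA (18.4% against 21.7%) and the Sp1 word GGGCGG (78.9% against 38.2%), which can share letters with TTTCCCGC read on the other strand. A match is a description of letters and says nothing of binding. Stretches of 45 bases around the word are shown for 6 of the 9 genes with a word before the start, as examples from licensing, the MCM ring and polymerase α (Gins3, Rfc3 and Uhrf1 are not shown), each on its gene's strand, 5′ to 3′, with the E2F words in capitals. Starts are those of RefSeq, and in Orc1, Cdc6 and Mcm7 the stretch reaches into the gene as GENCODE draws it. They lie at chr4:108579409-108579453 (Orc1, plus strand), chr11:98907995-98908039 (Cdc6, plus), chr8:75109342-75109386 (Mcm5, plus), chr1:128359726-128359770 (Mcm6, minus), chr5:138172022-138172066 (Mcm7, minus) and chrX:93632267-93632311 (Pola1, minus).
Orc1: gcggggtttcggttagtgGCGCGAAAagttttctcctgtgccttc
Cdc6: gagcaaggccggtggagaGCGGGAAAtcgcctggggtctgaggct
Mcm5: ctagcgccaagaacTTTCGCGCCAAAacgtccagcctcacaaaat
Mcm6: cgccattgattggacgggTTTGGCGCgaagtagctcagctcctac
Mcm7: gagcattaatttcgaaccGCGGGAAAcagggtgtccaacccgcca
Pola1: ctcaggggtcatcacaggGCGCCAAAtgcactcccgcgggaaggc
The capitals in Mcm5 hold 2 words that overlap on opposite strands. The first 5 genes load or form the helicase ring and the last is the catalytic subunit of the polymerase that makes primers. Over all matched genes the words stood in 6 of 19 that were called higher on either coating and in 9 of 19 that were not.

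ITGA5 neutralization was associated with higher mRNA of part of the replication machinery, on either coating. Without fibronectin, 21 of the 46 genes were called higher and 0 lower (edgeR, adjusted p up to 0.05), while 11.0% of all genes tested were called higher and 9.79% lower. With fibronectin, 16 were called higher and 0 lower, against 14.4% and 13.2% of all genes tested. The median log2 fold change was 0.21 over the 46 genes and 0.0090 over all genes without fibronectin, and 0.17 and -0.0038 with fibronectin. Thymidylate synthase (Tyms), thymidine kinase 1 (Tk1) and 2 subunits of the clamp loader (Rfc4, Rfc5) had the 4 largest differences on both coatings, followed by the helicase activator Mcm10 without and by Rrm1 of ribonucleotide reductase with fibronectin. By edgeR, none of the 11 genes of licensing and the MCM ring was called in either comparison and 21 and 16 of the 35 others were, a split that was not tested. Under other settings some of the 11 were called: Gmnn, Mcm5 and Mcm7 higher on both coatings, each under 1 to 4 of 16 alternatives, Orc6 higher with fibronectin under 3, and Cdt1 lower without it under 5.

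The called differences were modest, between 0.19 and 0.75 on the log2 scale without fibronectin and between 0.22 and 0.80 with fibronectin. Libraries of the groups did not overlap in FPKM for 27 higher and 2 lower genes without fibronectin, where 18.7% of all genes were so separated upwards and 19.4% downwards. With fibronectin the counts were 20 higher and 0 lower, against 21.7% and 20.6%. With 3 libraries against 3, the exact permutation test of FPKM cannot go below p = 0.1. At an unadjusted p under 0.05, 29 genes of the set were higher and 1 lower (Cdt1) without fibronectin, against 17.3% and 16.2% of all genes, and 27 and 0 with fibronectin, against 19.8% and 18.9%. DESeq2 called that 1 gene lower without fibronectin and 0 with fibronectin. The count without fibronectin changed when single libraries were left out. It was 11 and 10 without IgG replicates 1 and 3, and 12 without anti-ITGA5 replicate 1. Over all genes tested, 846, 893 and 1001 were called higher in these fits, against 1419 with every library. Without anti-ITGA5 replicate 2, the library that stood apart, the count was 28, and 1992 over all genes. With fibronectin the count was 25 with total counts in place of TMM scaling, 29 without anti-ITGA5 replicate 3, and 11 when IgG replicate 3 or anti-ITGA5 replicate 2 was left out. Over all genes it was 2407, 2065, 1366 and 1483 in that order, against 1866 in the main fit. On unfiltered log2(FPKM + 1), limma called 7 genes of the set higher without and 5 with fibronectin, and 684 and 1025 over all genes. Some calls were lost in about as many alternatives as they were kept: of 16, Cdc45, Prim1, Pold1, Rfc2 and Uhrf1 lost theirs under 8 without fibronectin, and with fibronectin Gins3 under 9 and Pola2, Pole2 and Lig1 under 7. In bulk libraries, more cells in S phase and more mRNA per cell cannot be told apart.

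Expression of other cell cycle genes and of some macrophage markers also differed upon neutralization, the markers not all in the same direction. The summed FPKM of the 8 macrophage markers was 8977 to 9822 in IgG and 6129 to 7517 upon neutralization without fibronectin, and 9558 to 9759 and 7336 to 7506 with fibronectin. Most of that sum was Lyz2 (lysozyme), at 7149 to 7988 FPKM in IgG and 4559 to 5788 upon neutralization without fibronectin, and 7699.9 to 7909.5 and 5603 to 5751 with it. The other 7 summed to 1828 to 1874 and 1569.8 to 1736 FPKM, and to 1849.6 to 1884 and 1734 to 1755. On each coating 4 of the 8 were called lower (Lyz2, Cd68, Itgam, Mertk), Cd14 was called higher, and Adgre1, Csf1r and Fcgr1 were not called. Of all genes tested, 9.79% were called lower without and 13.2% with fibronectin. The part of these markers in the result for the 46 genes was not tested. Cyclins and mitotic genes are given further on.

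**Figure D1:**
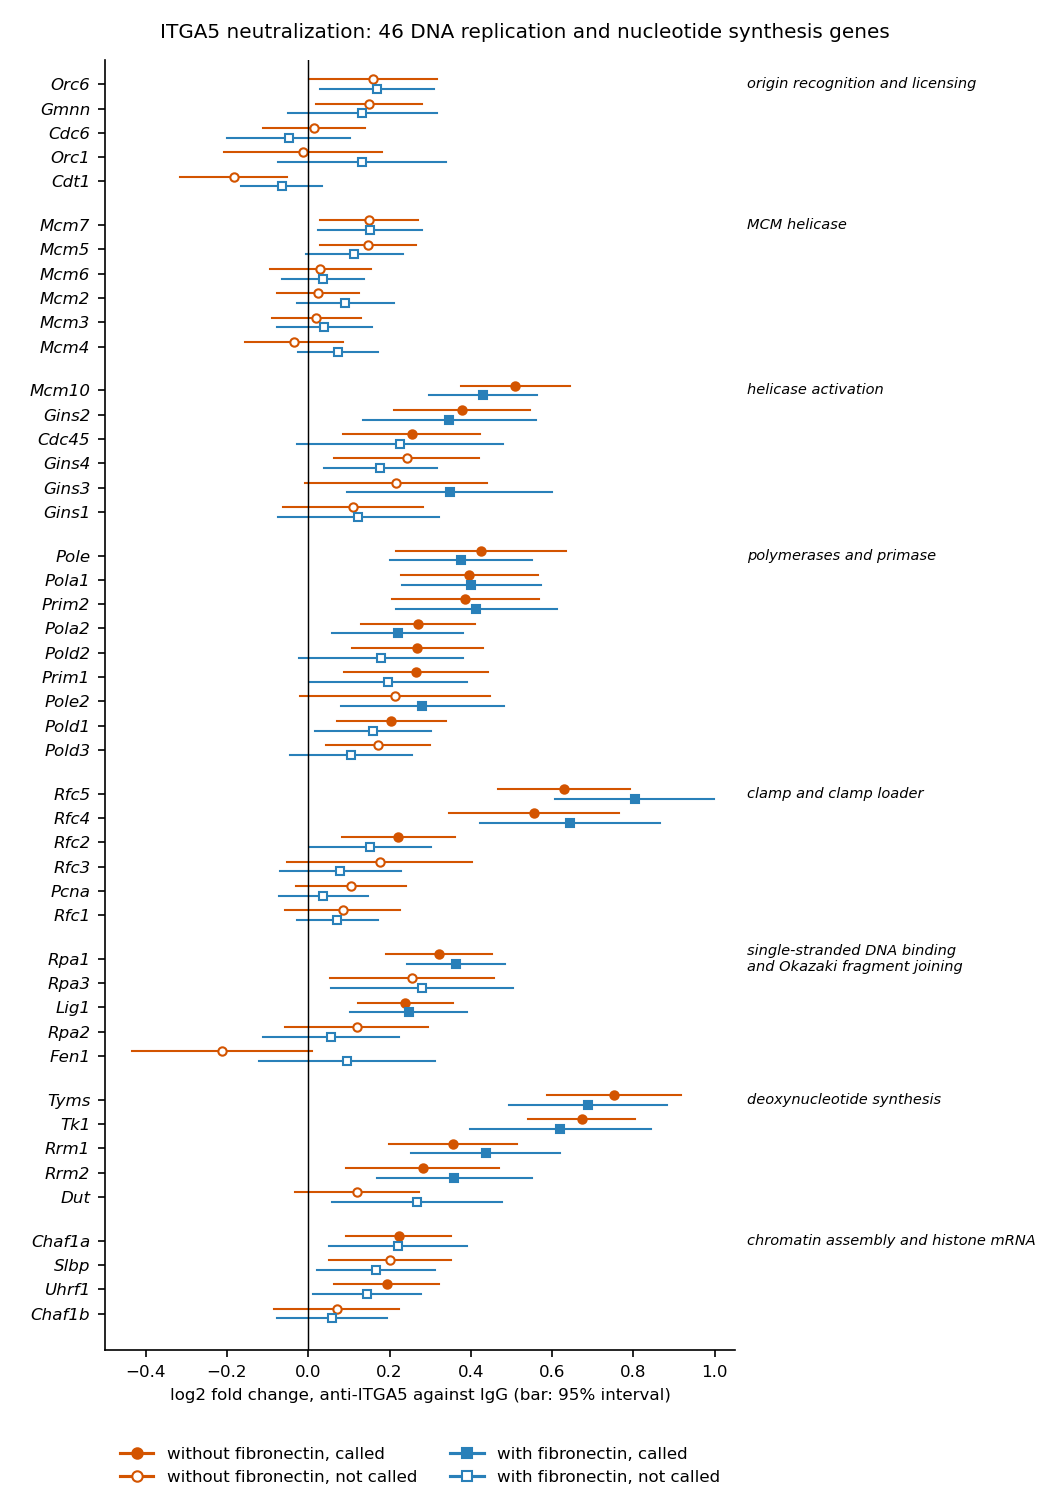
Log2 fold change of anti-ITGA5 against IgG (x axis, log2 scale) with its 95% interval for each of the 46 genes, ordered by role, without fibronectin (circles) and with fibronectin (squares). Filled symbols were called (adjusted p up to 0.05), and the 11 genes of licensing and the MCM helicase have open symbols throughout while Tyms, Tk1, Rfc4 and Rfc5 lie farthest to the right on both coatings.

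Among the licensing genes, none of 5 was called by edgeR on either coating (DESeq2 called Cdt1 lower without fibronectin), and their median log2 fold change was 0.014 without and 0.13 with fibronectin. At an unadjusted p under 0.05, 2 were higher and 1 lower without fibronectin, and 1 was higher with fibronectin, where 17.3% of all genes were higher and 16.2% lower at that threshold, and 19.8% higher with fibronectin. Orc1 measured 3.56, 3.46 and 3.46 FPKM in IgG and 3.46, 3.57 and 3.35 upon neutralization without fibronectin, and 3.08, 3.02 and 2.76 in IgG and 3.24, 3.24 and 3.23 upon neutralization with fibronectin. Orc1, the largest subunit of the origin recognition complex, was the least abundant of the 46 genes per length, and its groups overlapped without fibronectin and were apart with it, at -0.012 ± 0.088 and 0.13 ± 0.10 (adjusted p = 0.942 and 0.338). Orc6 measured 13.4, 14.4 and 12.3 FPKM in IgG and 15.4, 14.3 and 15.0 upon neutralization without fibronectin, and 13.2, 14.3 and 13.4 in IgG and 16.1, 15.3 and 14.7 upon neutralization with fibronectin. Its log2 fold changes were 0.16 ± 0.071 (SE) and 0.17 ± 0.065, short of the threshold on both coatings (adjusted p = 0.144 and 0.0687). Cdc6 stood at 8.89, 8.35 and 8.42 FPKM in IgG and 8.83, 8.25 and 8.72 upon neutralization without fibronectin, and 8.97, 9.82 and 8.23 in IgG and 9.07, 8.79 and 8.30 upon neutralization with fibronectin. The ATPase Cdc6 overlapped between the groups on both coatings, and the 95% interval of its difference ran from -0.11 to 0.14 without and from -0.20 to 0.10 with fibronectin.

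Cdt1 and its inhibitor geminin (Gmnn) are of interest as a pair, since geminin binds Cdt1 after S phase begins and blocks renewed licensing. Cdt1 measured 37.0, 38.3 and 39.6 FPKM in IgG and 35.4, 30.8 and 34.6 upon neutralization without fibronectin, and 38.8, 38.5 and 36.0 in IgG and 35.4, 35.8 and 37.3 upon neutralization with fibronectin. All 3 libraries of anti-ITGA5 without fibronectin lay below the 3 of IgG, and the groups overlapped with fibronectin. The log2 fold change of Cdt1 was -0.18 ± 0.059 (adjusted p = 0.051), just outside the threshold, and -0.066 ± 0.046 (adjusted p = 0.325) with fibronectin. It was called lower without fibronectin under 5 of 16 alternatives, among them DESeq2, all 12 libraries in one fit, a filter of 10 counts in every library, and the fit without anti-ITGA5 replicate 2. Gmnn measured 45.3, 45.2 and 42.5 FPKM in IgG and 52.1, 47.8 and 47.1 upon neutralization without fibronectin, and 49.7, 46.2 and 44.5 in IgG and 54.1, 56.6 and 43.1 upon neutralization with fibronectin. Gmnn was higher in all 3 anti-ITGA5 libraries without fibronectin and overlapped with fibronectin, at a log2 fold change of 0.15 and 0.13, not called (adjusted p = 0.102 and 0.273).

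The 6 subunits of the MCM helicase, the motor that unwinds DNA at the fork, were abundant and had small differences. Their log2 fold changes lay between -0.035 and 0.15 without and between 0.037 and 0.15 with fibronectin, and none of 6 was called by edgeR or DESeq2 (2 and 1 were higher at an unadjusted p under 0.05, where 17.3% and 19.8% of all genes were). The upper 95% limit of all 6 was at most 0.27 without and 0.28 with fibronectin. The smallest called log2 fold changes of the set were 0.19 and 0.22. On each coating, the intervals of Mcm5 and Mcm7 included that value, and those of the other subunits ended below it. Mcm6 measured 74.0, 73.7 and 66.6 FPKM in IgG and 74.5, 69.9 and 73.5 upon neutralization without fibronectin, and 74.7, 74.3 and 67.9 in IgG and 76.4, 75.5 and 70.9 upon neutralization with fibronectin. Mcm6, the most abundant subunit per length, overlapped between the groups on both coatings. Mcm3 measured 56.0, 57.5 and 56.1 FPKM in IgG and 59.7, 54.8 and 56.8 upon neutralization without fibronectin, and 58.9, 59.2 and 53.1 in IgG and 59.2, 61.8 and 55.2 upon neutralization with fibronectin. Mcm2 stood at 26.2, 26.0 and 26.1 FPKM in IgG and 26.7, 25.6 and 26.9 upon neutralization without fibronectin, and 28.7, 26.9 and 24.3 in IgG and 29.1, 28.5 and 27.5 upon neutralization with fibronectin. Mcm4 measured 43.0, 44.2 and 41.2 FPKM in IgG and 44.3, 39.5 and 41.1 upon neutralization without fibronectin, and 42.3, 43.5 and 39.7 in IgG and 45.0, 44.3 and 42.9 upon neutralization with fibronectin. These 3 overlapped on both coatings as well, and Mcm4 was the only subunit with a log2 fold change below 0 (-0.035 ± 0.055 without fibronectin, which became 0.0054 with total counts in place of TMM scaling). Mcm5 stood at 52.2, 53.4 and 51.3 FPKM in IgG and 61.1, 54.3 and 57.7 upon neutralization without fibronectin, and 56.1, 57.4 and 49.4 in IgG and 60.4, 59.9 and 56.1 upon neutralization with fibronectin. Mcm7 measured 33.4, 34.5 and 31.4 FPKM in IgG and 38.2, 34.9 and 36.7 upon neutralization without fibronectin, and 35.2, 35.6 and 30.1 in IgG and 37.8, 38.4 and 36.2 upon neutralization with fibronectin. Both had all 3 anti-ITGA5 libraries above IgG without fibronectin, and Mcm7 also with fibronectin. Mcm5 and Mcm7 missed the threshold at a log2 fold change of 0.15 ± 0.053 and 0.15 ± 0.054 without fibronectin (adjusted p = 0.0741 and 0.0764), and with fibronectin at 0.11 ± 0.055 and 0.15 ± 0.059 (adjusted p = 0.15 and 0.0746). Both were called without fibronectin with total counts as scaling or without anti-ITGA5 replicate 2, and with fibronectin Mcm5 was called under 1 of 16 alternatives and Mcm7 under 4, among them total counts, a filter of 1 count and the fit without anti-ITGA5 replicate 3. Of the genes on the opposite strand of Mcm7, Ap4m1 had log2 fold changes of -0.027 and -0.21 and Cops6 had log2 fold changes of 0.20 and 0.13, neither called.

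Of the 6 genes that switch the loaded ring on, 3 were called higher on each coating. Mcm10, needed for the helicase to start unwinding, had the largest difference of the role. Mcm10 measured 5.91, 5.99 and 5.64 FPKM in IgG and 8.60, 8.43 and 7.87 upon neutralization without fibronectin, and 6.06, 6.38 and 5.73 in IgG and 8.09, 8.67 and 7.76 upon neutralization with fibronectin. The groups were well apart on both coatings, with a log2 fold change of 0.51 ± 0.060 (SE, adjusted p = 0.00024) without and 0.43 ± 0.061 (adjusted p = 0.000243) with fibronectin, and it was called under every alternative. Gins2 stood at 7.05, 7.62 and 7.24 FPKM in IgG and 9.86, 8.40 and 10.0 upon neutralization without fibronectin, and 8.47, 8.30 and 6.54 in IgG and 9.63, 11.0 and 9.09 upon neutralization with fibronectin. This GINS subunit was higher in all anti-ITGA5 libraries, with a log2 fold change of 0.38 ± 0.075 (SE, adjusted p = 0.00542) without and 0.35 ± 0.10 (adjusted p = 0.0197) with fibronectin. It lies across from Gse1 on the opposite strand, which fell (-0.28 and -0.32, both called). Gins3 measured 4.17, 5.05 and 4.27 FPKM in IgG and 5.07, 5.01 and 5.51 upon neutralization without fibronectin, and 4.23, 4.29 and 3.70 in IgG and 5.53, 5.69 and 4.33 upon neutralization with fibronectin. Cdc45 stood at 9.28, 10.8 and 10.2 FPKM in IgG and 12.1, 12.6 and 11.2 upon neutralization without fibronectin, and 10.9, 11.6 and 8.21 in IgG and 12.4, 13.3 and 10.4 upon neutralization with fibronectin. Gins3 was called only with fibronectin (0.35 ± 0.12, adjusted p = 0.0416) and Cdc45, the partner of GINS, only without (0.26 ± 0.076, adjusted p = 0.0373), while the difference between coatings was not called for either (interaction 0.13 ± 0.16 and -0.032 ± 0.16, adjusted p = 0.9997 for both). Gins4 measured 24.4, 22.6 and 22.6 FPKM in IgG and 29.3, 23.7 and 28.7 upon neutralization without fibronectin, and 23.6, 24.3 and 24.4 in IgG and 28.3, 27.8 and 25.7 upon neutralization with fibronectin. Gins1 stood at 15.2, 16.7 and 16.7 FPKM in IgG and 17.5, 18.3 and 16.5 upon neutralization without fibronectin, and 18.8, 16.7 and 16.4 in IgG and 20.0, 20.1 and 16.3 upon neutralization with fibronectin. Gins4, the most abundant of the role per length, lay above IgG in all 3 libraries with fibronectin and missed the threshold narrowly on both coatings (adjusted p = 0.0572 and 0.0559), whereas Gins1 overlapped on both, at 0.11 and 0.12.

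All 9 polymerase and primase genes had log2 fold changes above 0 on both coatings, and 7 were called without and 5 with fibronectin. Polymerase α and primase lay down the RNA-DNA primers that start each strand, polymerase ε extends the leading strand and polymerase δ the lagging strand. Pola1 measured 8.29, 9.20 and 7.50 FPKM in IgG and 11.2, 11.2 and 10.4 upon neutralization without fibronectin, and 8.31, 9.17 and 7.80 in IgG and 12.1, 11.6 and 9.70 upon neutralization with fibronectin. The catalytic subunit of polymerase α was higher in every anti-ITGA5 library than in any IgG library of the same coating, with a log2 fold change of 0.40 ± 0.076 (SE, adjusted p = 0.00442) without and 0.40 ± 0.079 (adjusted p = 0.00236) with fibronectin. Prim2 measured 5.49, 4.87 and 4.51 FPKM in IgG and 6.91, 6.22 and 6.22 upon neutralization without fibronectin, and 4.88, 5.24 and 4.37 in IgG and 6.52, 7.13 and 5.66 upon neutralization with fibronectin. Prim1 stood at 7.69, 8.21 and 6.80 FPKM in IgG and 9.61, 8.90 and 8.70 upon neutralization without fibronectin, and 7.99, 7.99 and 7.17 in IgG and 9.56, 9.38 and 7.60 upon neutralization with fibronectin. Pola2 measured 14.1, 14.7 and 13.0 FPKM in IgG and 17.2, 16.4 and 16.5 upon neutralization without fibronectin, and 14.4, 15.4 and 12.9 in IgG and 17.0, 17.5 and 15.4 upon neutralization with fibronectin. The large primase subunit Prim2 was called on both coatings, at 0.39 ± 0.082 and 0.41 ± 0.091, as was the polymerase α subunit Pola2, at 0.27 ± 0.064 and 0.22 ± 0.074, though its FPKM overlapped with fibronectin. The catalytic primase subunit Prim1 was called without fibronectin (0.27 ± 0.080, adjusted p = 0.0399) and not with it, where the groups overlapped (0.20 ± 0.089, adjusted p = 0.121).

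For polymerase ε, 2 subunits were in the set. Pole measured 5.59, 6.47 and 5.54 FPKM in IgG and 7.45, 8.93 and 7.19 upon neutralization without fibronectin, and 5.72, 6.30 and 4.89 in IgG and 7.64, 7.61 and 6.73 upon neutralization with fibronectin. Pole, the catalytic subunit, was separated on both coatings, with a log2 fold change of 0.43 ± 0.094 (SE, adjusted p = 0.00961) without and 0.38 ± 0.081 (adjusted p = 0.00424) with fibronectin. Pole2 stood at 5.12, 5.59 and 4.46 FPKM in IgG and 6.39, 5.72 and 5.43 upon neutralization without fibronectin, and 4.62, 5.39 and 4.75 in IgG and 6.28, 6.17 and 5.52 upon neutralization with fibronectin. Pole2, its second subunit, overlapped without fibronectin and was called with it (0.28 ± 0.093, adjusted p = 0.0397). For polymerase δ, 3 subunits were in the set. Pold1 measured 17.4, 18.6 and 17.5 FPKM in IgG and 20.2, 21.7 and 19.6 upon neutralization without fibronectin, and 19.7, 19.8 and 17.6 in IgG and 21.0, 23.3 and 19.5 upon neutralization with fibronectin. Pold2 stood at 13.9, 16.2 and 15.8 FPKM in IgG and 18.8, 18.0 and 18.3 upon neutralization without fibronectin, and 18.6, 18.3 and 14.3 in IgG and 19.8, 20.3 and 18.0 upon neutralization with fibronectin. Pold3 measured 15.1, 13.9 and 14.3 FPKM in IgG and 16.1, 16.7 and 15.8 upon neutralization without fibronectin, and 15.0, 15.6 and 14.6 in IgG and 17.3, 17.1 and 14.2 upon neutralization with fibronectin. Pold1, the most abundant gene of the role per length, and Pold2 were called without fibronectin, at 0.20 ± 0.061 and 0.27 ± 0.073, and neither with fibronectin, at 0.16 and 0.18. Pold3 was not called on either coating, though its groups did not overlap without fibronectin (adjusted p = 0.0575 and 0.287).

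Of the clamp and its loader, 3 of 6 genes were called without and 2 with fibronectin. The role held both small differences that were not called and some of the largest differences. Pcna, the ring that tethers polymerases and the most abundant of the 46 genes per length, measured 243, 261 and 231 FPKM in IgG and 279, 252 and 258 FPKM upon ITGA5 neutralization without fibronectin. With fibronectin Pcna stood at 273, 276 and 249.8 FPKM in IgG and 275, 289 and 257 FPKM upon ITGA5 neutralization. These ranges overlapped on both coatings, the log2 fold change was 0.10 ± 0.061 and 0.038 ± 0.050, and the upper 95% limit was 0.24 and 0.15. Reads of Pcna could be shared with 2 annotated pseudogenes. Rfc5 and Rfc4, small subunits of the loader, lay at the other end. Rfc5 measured 6.14, 6.96 and 5.83 FPKM in IgG and 9.95, 9.53 and 9.69 upon neutralization without fibronectin, and 6.10, 6.46 and 5.16 in IgG and 10.1, 11.4 and 9.46 upon neutralization with fibronectin. Rfc4 stood at 9.36, 9.55 and 8.45 FPKM in IgG and 13.2, 14.5 and 12.5 upon neutralization without fibronectin, and 8.83, 8.39 and 7.56 in IgG and 13.1, 14.3 and 11.3 upon neutralization with fibronectin. In both genes the lowest anti-ITGA5 library was above the highest IgG library of its coating. Rfc5 had a log2 fold change of 0.63 ± 0.073 (SE, adjusted p = 0.000219) without and 0.80 ± 0.090 (adjusted p = 4.30e-05) with fibronectin. Rfc4 had a log2 fold change of 0.56 ± 0.094 (SE, adjusted p = 0.00225) without and 0.64 ± 0.10 (adjusted p = 0.000561) with fibronectin. Both were called under every alternative. They overlap genes on the opposite strand, Wsb2 and Eif4a2, and whether the counting used strand is not given in the sources used here. Wsb2 had log2 fold changes of -0.094 and -0.052 and Eif4a2 of -0.034 and -0.028, none called.

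The set held 3 more subunits of the loader. Rfc2 measured 9.85, 10.5 and 9.06 FPKM in IgG and 11.6, 11.3 and 11.3 upon neutralization without fibronectin, and 10.7, 11.2 and 9.31 in IgG and 11.0, 12.3 and 11.4 upon neutralization with fibronectin. Rfc2 was called without fibronectin (0.22 ± 0.063, adjusted p = 0.0305) and overlapped with it (0.15 ± 0.069, adjusted p = 0.119). Rfc1 stood at 20.5, 20.2 and 19.5 FPKM in IgG and 22.0, 22.2 and 19.4 upon neutralization without fibronectin, and 19.2, 20.5 and 19.0 in IgG and 21.0, 19.9 and 20.9 upon neutralization with fibronectin. Rfc3 measured 7.52, 7.66 and 6.76 FPKM in IgG and 8.67, 6.76 and 9.14 upon neutralization without fibronectin, and 8.25, 7.49 and 7.57 in IgG and 8.05, 8.47 and 8.12 upon neutralization with fibronectin. Rfc1, the large subunit, and Rfc3 overlapped between the groups on both coatings and were not called, at 0.085 and 0.18 without and 0.072 and 0.079 with fibronectin. In Rfc3, replicate 2 of anti-ITGA5 without fibronectin was the lowest of its group.

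Replication protein A coats single-stranded DNA as a trimer, and of its 3 subunits Rpa1 was called. Rpa1 measured 26.7, 29.0 and 26.1 FPKM in IgG and 36.1, 32.3 and 33.4 upon neutralization without fibronectin, and 28.1, 29.4 and 27.2 in IgG and 36.7, 39.0 and 33.4 upon neutralization with fibronectin. Rpa1, the large subunit, was separated on both coatings, with a log2 fold change of 0.32 ± 0.059 (SE, adjusted p = 0.00345) without and 0.36 ± 0.055 (adjusted p = 0.000401) with fibronectin, and was called under every alternative. Rpa2 stood at 18.3, 19.7 and 17.2 FPKM in IgG and 21.7, 17.5 and 20.4 upon neutralization without fibronectin, and 19.8, 20.0 and 17.4 in IgG and 20.2, 21.7 and 17.6 upon neutralization with fibronectin. Rpa3 measured 10.9, 11.3 and 11.8 FPKM in IgG and 14.1, 12.1 and 14.0 upon neutralization without fibronectin, and 13.5, 12.4 and 10.4 in IgG and 15.1, 15.4 and 13.7 upon neutralization with fibronectin. Rpa3 lay above IgG in all anti-ITGA5 libraries of both coatings without being called (adjusted p = 0.073 and 0.061), at 0.26 and 0.28, and Rpa2 overlapped on both, at 0.12 and 0.055. Okazaki fragments are trimmed by the flap nuclease Fen1 and sealed by DNA ligase 1. Lig1 measured 40.6, 41.2 and 37.5 FPKM in IgG and 47.9, 46.4 and 45.9 upon neutralization without fibronectin, and 41.0, 44.0 and 37.7 in IgG and 49.3, 52.4 and 44.0 upon neutralization with fibronectin. Lig1, the most abundant gene of this role per length, was called on both coatings, at 0.24 ± 0.053 (adjusted p = 0.00961) and 0.25 ± 0.066 (adjusted p = 0.0147), and Zswim9 on its opposite strand stood at 0.40 and 0.22, not called, with 109 to 198 counts. Fen1 stood at 4.87, 5.86 and 5.30 FPKM in IgG and 4.45, 4.50 and 4.83 upon neutralization without fibronectin, and 4.76, 5.63 and 4.79 in IgG and 5.64, 5.55 and 5.07 upon neutralization with fibronectin. Fen1 was lower in all 3 anti-ITGA5 libraries without fibronectin and overlapped with it, at -0.21 ± 0.10 (adjusted p = 0.167) and 0.10 ± 0.10 (adjusted p = 0.519).

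Deoxynucleotide synthesis was the role with the largest median difference, 0.36 without and 0.44 with fibronectin, and 4 of its 5 genes were called on each coating. Tyms (chr5:30058202-30073617, GRCm38, minus strand) makes thymidylate from deoxyuridylate. Tyms measured 5.02, 5.34 and 4.41 FPKM in IgG and 8.39, 8.34 and 8.07 upon neutralization without fibronectin, and 4.90, 5.11 and 4.79 in IgG and 8.19, 8.92 and 6.74 upon neutralization with fibronectin. No library of one group reached the range of the other on the same coating, and the lowest anti-ITGA5 value with fibronectin was that of replicate 3. Tyms had a log2 fold change of 0.75 ± 0.075 (SE, adjusted p = 7.39e-05) without and 0.69 ± 0.090 (adjusted p = 0.00013) with fibronectin, the largest of all 46 genes without fibronectin, and was called under every alternative. An annotated pseudogene, Tyms-ps, could share its reads. Tk1 (chr11:117815526-117826092, minus strand) salvages thymidine. Tk1 measured 13.8, 15.3 and 13.7 FPKM in IgG and 22.2, 23.1 and 22.6 upon neutralization without fibronectin, and 15.6, 16.6 and 12.8 in IgG and 24.5, 25.5 and 19.2 upon neutralization with fibronectin. Its groups were apart on both coatings, with a log2 fold change of 0.67 ± 0.059 (SE, adjusted p = 3.95e-05) without and 0.62 ± 0.10 (adjusted p = 0.000754) with fibronectin. Tk1 overlaps Afmid on the opposite strand, which had only 28 to 45 counts per library.

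Ribonucleotide reductase turns ribonucleotides into deoxynucleotides. Rrm1 measured 21.2, 24.0 and 19.7 FPKM in IgG and 28.8, 27.2 and 26.9 upon neutralization without fibronectin, and 22.3, 23.7 and 19.1 in IgG and 30.3, 32.4 and 25.5 upon neutralization with fibronectin. Rrm2 stood at 45.6, 54.7 and 42.8 FPKM in IgG and 61.4, 56.7 and 55.0 upon neutralization without fibronectin, and 47.8, 52.5 and 41.1 in IgG and 63.0, 65.8 and 52.8 upon neutralization with fibronectin. Both subunits were above IgG in every anti-ITGA5 library of the same coating. The large subunit Rrm1 had a log2 fold change of 0.36 ± 0.071 (SE, adjusted p = 0.0055) without and 0.44 ± 0.084 (adjusted p = 0.00216) with fibronectin. The small subunit Rrm2, which limits the enzyme in S phase and was the most abundant gene of the role per length, had a log2 fold change of 0.28 ± 0.085 (SE, adjusted p = 0.0387) without and 0.36 ± 0.087 (adjusted p = 0.00873) with fibronectin. Dut measured 13.5, 14.4 and 12.8 FPKM in IgG and 15.3, 13.7 and 15.0 upon neutralization without fibronectin, and 14.5, 13.6 and 12.3 in IgG and 17.6, 17.5 and 13.6 upon neutralization with fibronectin. Dut, which removes dUTP, was not called and its groups overlapped on both coatings, with 0.12 ± 0.069 (adjusted p = 0.253) and 0.27 ± 0.10 (adjusted p = 0.0555). With fibronectin Dut was called higher under 6 of 16 alternatives, DESeq2 among them.

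Of 4 genes that rebuild chromatin behind the fork, 2 were called without fibronectin. With fibronectin edgeR called 0 (3 were higher at an unadjusted p under 0.05, as were 19.8% of all genes) and DESeq2 called Chaf1a. Chaf1a was called with fibronectin under 7 of 16 alternatives, and Uhrf1 and Slbp under 4 each. Chaf1a measured 7.38, 7.62 and 7.07 FPKM in IgG and 8.43, 8.91 and 8.34 upon neutralization without fibronectin, and 8.29, 8.03 and 6.66 in IgG and 9.32, 9.32 and 8.17 upon neutralization with fibronectin. Chaf1b stood at 10.6, 10.5 and 9.70 FPKM in IgG and 11.4, 10.9 and 9.91 upon neutralization without fibronectin, and 10.7, 10.5 and 9.76 in IgG and 10.6, 11.4 and 10.2 upon neutralization with fibronectin. Chaf1a, the large subunit of chromatin assembly factor 1, was called without fibronectin (0.22 ± 0.058, adjusted p = 0.0215) and just missed with it, where the ranges overlapped (0.22 ± 0.078, adjusted p = 0.0517), while its partner Chaf1b overlapped on both coatings (0.070 and 0.058). Uhrf1 measured 45.8, 47.1 and 44.0 FPKM in IgG and 52.5, 54.4 and 49.0 upon neutralization without fibronectin, and 47.6, 48.3 and 42.2 in IgG and 53.6, 52.5 and 46.7 upon neutralization with fibronectin. Uhrf1, which reads hemimethylated DNA for the maintenance methyltransferase and was the most abundant of these 4 per length, was called without fibronectin (0.19 ± 0.058, adjusted p = 0.0391) and not with it (0.14 ± 0.061, adjusted p = 0.0964). Slbp stood at 11.7, 11.2 and 9.87 FPKM in IgG and 12.9, 12.1 and 12.5 upon neutralization without fibronectin, and 11.5, 12.1 and 11.0 in IgG and 13.4, 13.9 and 11.6 upon neutralization with fibronectin. Slbp, which binds the stem-loop of histone mRNA, was separated without fibronectin and not called on either coating (adjusted p = 0.0582 and 0.0812). Replication-dependent histone mRNAs lack a poly(A) tail and libraries were made from oligo(dT)-selected RNA, so histone genes were not examined. Other genes of the set that overlap a protein-coding gene with counts on the opposite strand were Orc6 (Vps35), Cdc45 (Ufd1), Rfc2 (Lat2), Fen1 (Tmem258) and Chaf1a (Ubxn6). The log2 fold changes of these 5 neighbours lay between -0.11 and 0.10, none called. Overlapping genes that are not protein-coding were not examined.

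**Figure D2:**
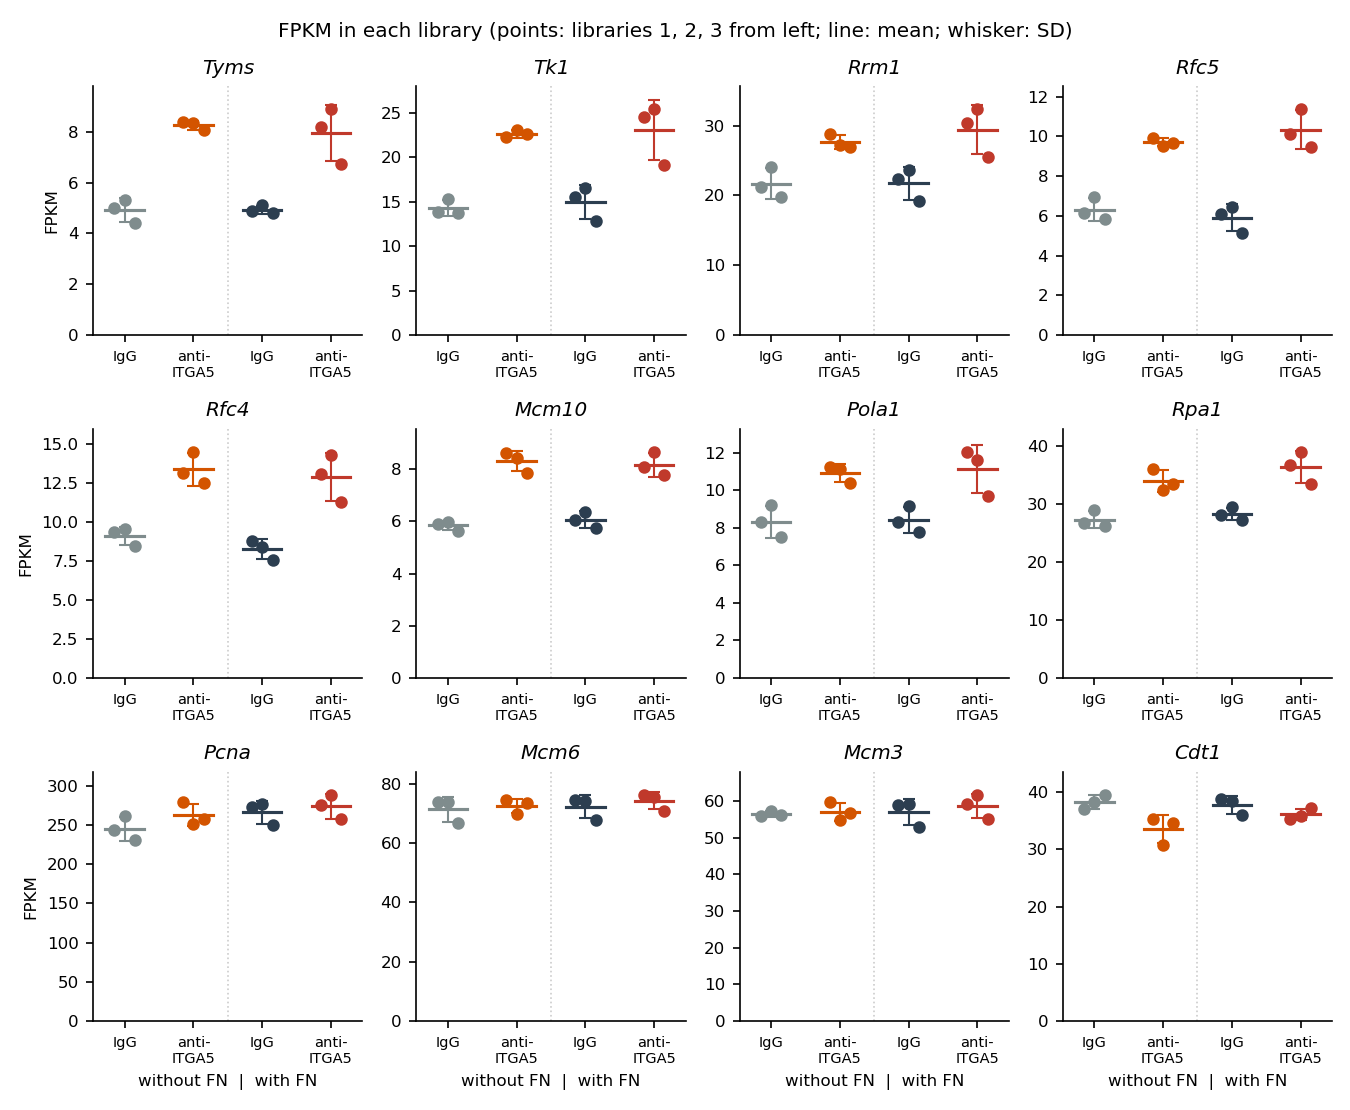
FPKM (y axis, from 0) of 12 genes in each of the 12 libraries, with the mean as a line and the SD as a whisker (n = 3 libraries per group), IgG and anti-ITGA5 without fibronectin on the left and with fibronectin (FN) on the right of each panel. The upper 8 genes are separated between IgG and anti-ITGA5 on both coatings, while Pcna, Mcm6 and Mcm3 overlap and Cdt1 is apart from IgG without fibronectin and overlaps with it.

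**Figure D3:**
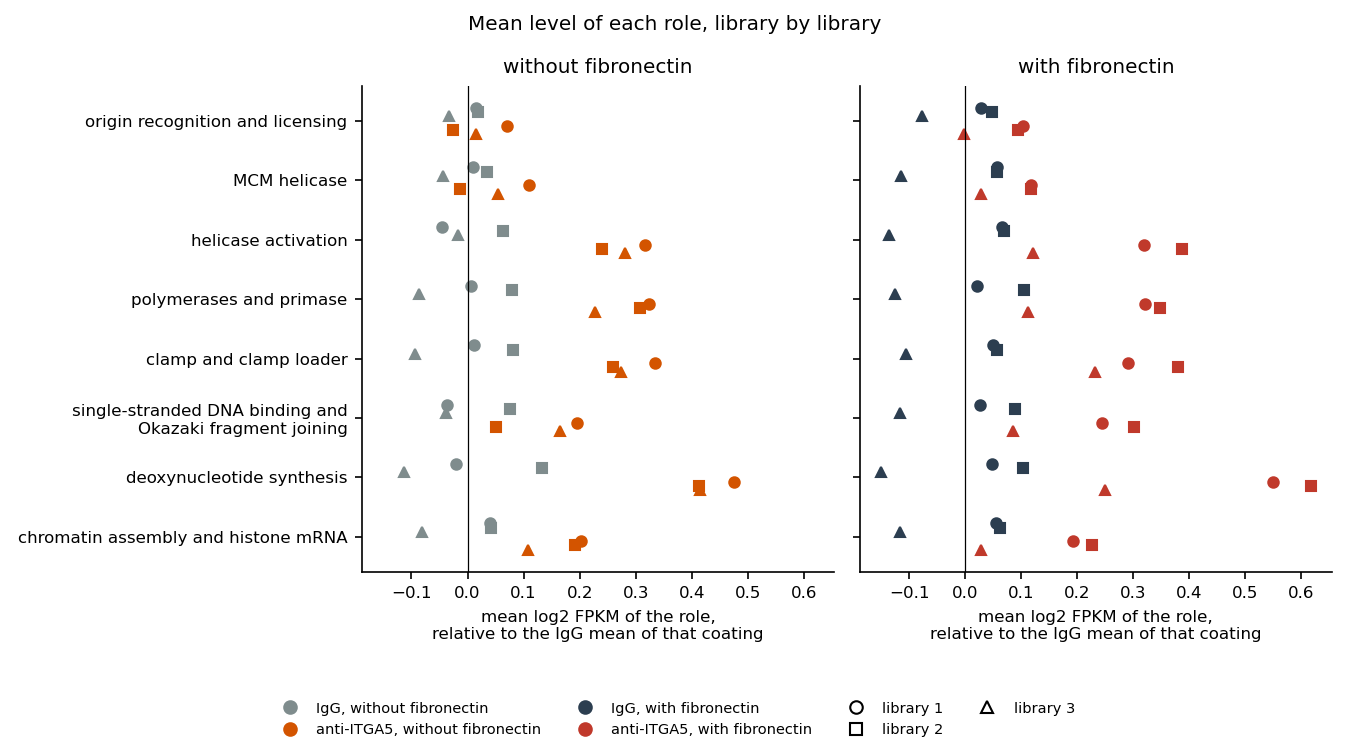
Mean log2 FPKM over the genes of each role in each library (x axis), relative to the mean of the 3 IgG libraries of the same coating, with symbols for the replicate number. Deoxynucleotide synthesis reaches farthest from IgG on both coatings, licensing, MCM and single-stranded DNA binding genes overlap with IgG on both, and chromatin genes overlap with fibronectin.

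Antibody effects on the 2 coatings come from separate libraries. Of the 46 genes, 14 were called higher on both coatings, 7 only without fibronectin, 2 only with fibronectin and 23 on neither. Each of those 7 was also called with fibronectin under 1 to 7 of 16 alternatives, and those 2 were called without it under 0. Of all genes tested on both coatings, 9.14% were called higher on both, 1.99% without fibronectin and not with it, and 5.53% the other way round. Across the 46 genes, the effects without and with fibronectin had Pearson's r = 0.91 and Spearman's rho = 0.91, given as a description, since genes are not independent replicates. The median difference of the effect, with minus without fibronectin, was -0.0067 on the log2 scale. In the fit over all 12 libraries, no gene of the set was called for the interaction of antibody and coating (0 of 46 by edgeR and 0 by DESeq2, 1 at an unadjusted p under 0.05), where 0% of all genes tested were called higher and 0.0223% lower, and 1.26% and 1.61% had a p under 0.05. The estimates ran from -0.10 to 0.30 with SEs of 0.070 to 0.16, so small differences between coatings were not detectable with these libraries. The gene with an unadjusted p under 0.05 was Fen1, at 0.30 ± 0.14 (adjusted p = 0.9997).

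**Figure D4:**
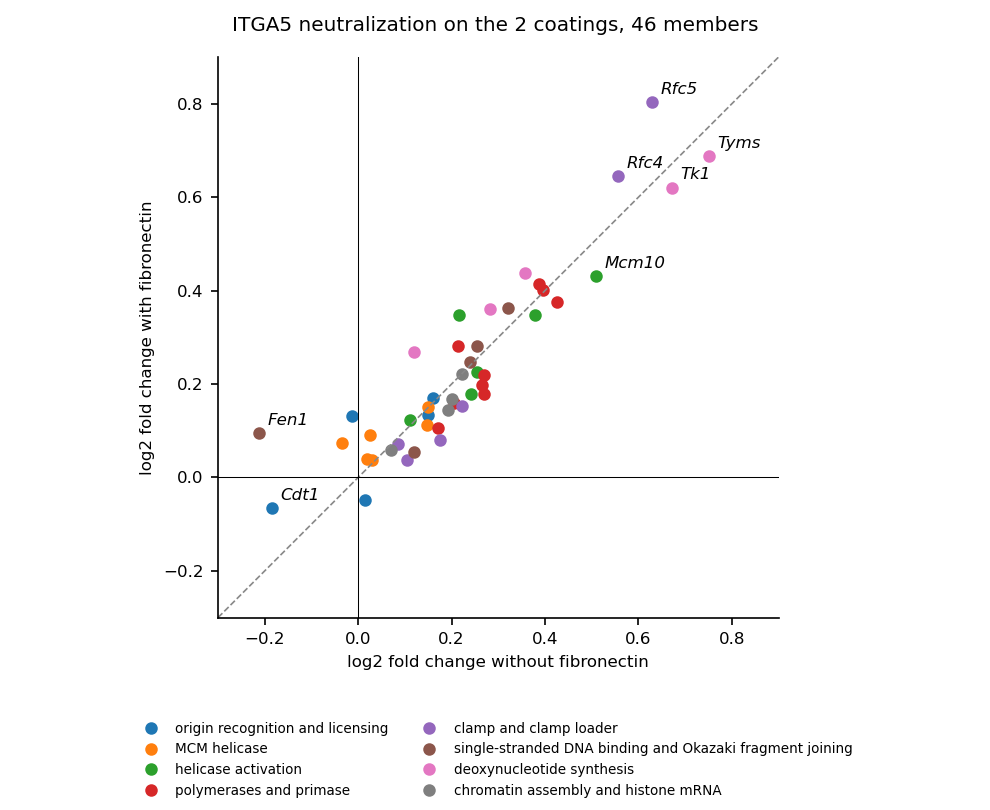
Log2 fold change of anti-ITGA5 against IgG with fibronectin (y axis) against without fibronectin (x axis) for the 46 genes, coloured by role, with the line of equal effects dashed. Points follow the line (Pearson's r = 0.91 across genes), Rfc5 lies above it, and Fen1 and Cdt1 lie farthest to the left.

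Fibronectin coating by itself was compared within each antibody. In IgG, 0 of 46 genes were called by edgeR and by DESeq2, where 0.325% of all genes tested were called higher and 0.124% lower. At an unadjusted p under 0.05, 1 was higher and 1 lower, against 5.30% and 4.50% of all genes. Orc1 was the lower one, and its 3 IgG libraries with fibronectin lay below the 3 without (-0.25 ± 0.10, adjusted p = 0.394). Pcna was the higher one (0.11 ± 0.047, adjusted p = 0.426), and its ranges overlapped. In anti-ITGA5, 0 of 46 genes were called by either tool, with 1 higher at an unadjusted p under 0.05 (Fen1, 0.22 ± 0.091, adjusted p = 0.979), where 0% of all genes were called higher and 0% lower, and 1.54% and 2.04% had such a p. Over the 46 genes the log2 fold changes ran from -0.25 to 0.15 in IgG and from -0.11 to 0.22 in anti-ITGA5. These comparisons share libraries with the antibody comparisons.

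Genes outside the set that work beside it were followed in 5 lists, and the genes named from them here were picked after their values were seen. For all 5 lists, the shares of all genes tested were 11.0% higher and 9.79% lower without, and 14.4% and 13.2% with fibronectin. Of 29 other fork and origin genes, 12 were called higher and 2 lower without fibronectin, and 13 and 1 with fibronectin, at median log2 fold changes of 0.24 and 0.23. Dbf4 and Cdc7, the 2 parts of the kinase that fires licensed origins, rose by 0.79 ± 0.078 and 0.56 ± 0.10 without and by 0.90 ± 0.077 and 0.54 ± 0.10 with fibronectin. Dbf4 measured 4.13, 4.50 and 3.61 FPKM in IgG and 6.88, 7.15 and 7.08 FPKM upon neutralization without fibronectin, with no overlap. The origin recognition subunits diverged: Orc2 rose by 0.58 ± 0.061 and 0.53 ± 0.071, Orc5 fell on both coatings (-0.25 ± 0.074 and -0.33 ± 0.079), Orc4 fell without fibronectin (-0.23 ± 0.062) and was separated but not called with it (-0.14 ± 0.058, adjusted p = 0.0859), and Orc3 was not called (0.026 and 0.11). Chtf18, of an alternative clamp loader, rose by 0.49 ± 0.078 and 0.60 ± 0.10. Topoisomerase 2α (Top2a), which also acts in mitosis, rose most, by 1.28 ± 0.10 and 1.38 ± 0.11.

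Of 20 other nucleotide synthesis genes, 10 were called higher without and 12 with fibronectin, with medians of 0.20 and 0.23. They included Shmt1 (0.39 ± 0.10 and 0.58 ± 0.11), which loads folate with one-carbon units. Cad (0.30 ± 0.057 and 0.38 ± 0.061) and Dhodh (0.45 ± 0.10 and 0.39 ± 0.085) act in pyrimidine synthesis, and Impdh2 (0.37 ± 0.055 and 0.46 ± 0.042) in purine synthesis. Samhd1, which breaks deoxynucleotides down, was not called (-0.10 and -0.050). Of 11 other chromatin genes, 4 and 6 were called higher, among them the histone chaperones Asf1b (0.71 ± 0.059 and 0.56 ± 0.10) and Nasp (0.41 ± 0.054 and 0.31 ± 0.048). Repair and mitochondrial polymerases had medians near 0 (0.0084 and 0.056), with 3 of 12 called higher on each coating, Polh, Polq and Polg.

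Of 15 cyclins and mitotic genes, 10 were called higher on each coating, each by more than any gene of the set, and the medians of the list were 1.14 and 1.26. Plk1 rose by 2.18 ± 0.11 and 2.27 ± 0.17, the mitotic cyclin Ccnb1 by 1.69 ± 0.090 and 1.83 ± 0.13, and the proliferation marker Mki67 by 1.44 ± 0.12 and 1.35 ± 0.12. The smallest of the 10 was Cdk1, at 0.88 ± 0.091 and 1.01 ± 0.094. Genes of G1 and of S phase entry stood lower in this list. Ccnd1 (-0.010 and 0.024), Ccne2 (-0.055 and 0.033), Cdk2 (0.012 and 0.13) and E2f1 (-0.019 and 0.056) were not called on either coating. Ccne1 was called lower without fibronectin (-0.29 ± 0.074, adjusted p = 0.0199) and not with it (-0.12, adjusted p = 0.359). The part of the mitotic genes in the values of the replication genes was not tested.

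**Figure D5:**
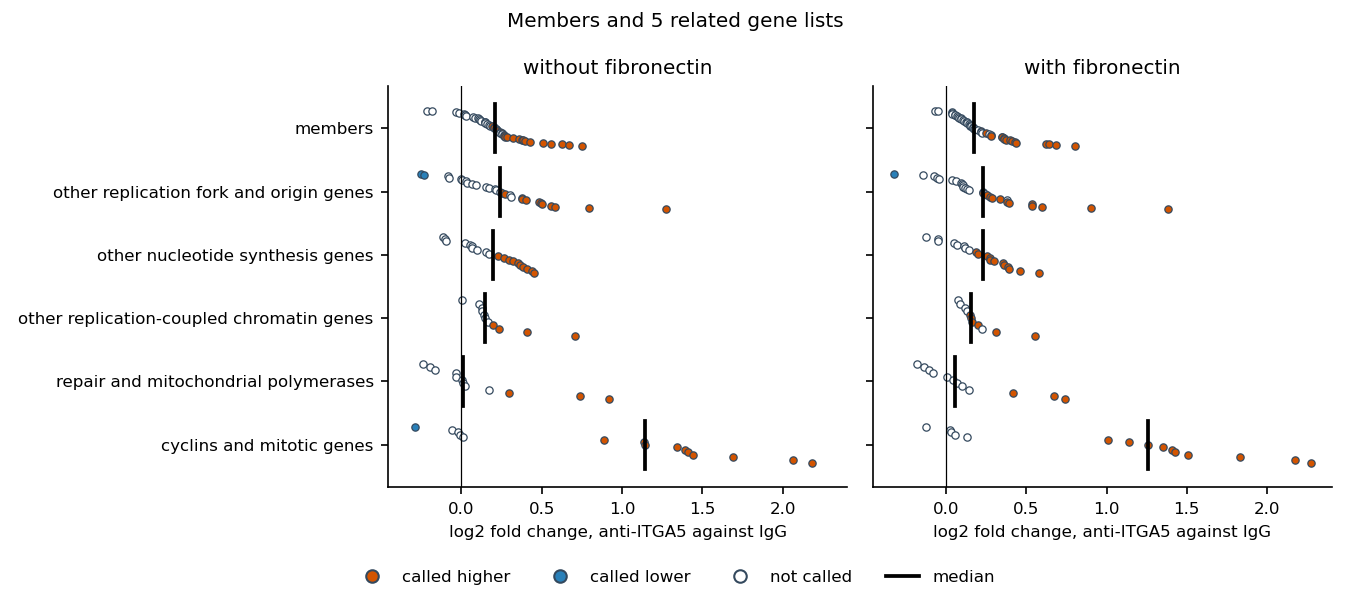
Log2 fold change of anti-ITGA5 against IgG (x axis) for each gene of the set (top strip, labelled members) and of 5 related lists, without fibronectin (left) and with fibronectin (right), with the median as a black bar and called genes filled. Cyclins and mitotic genes have a median of 1.14 and 1.26, against 0.21 and 0.17 for the 46 genes.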

How the data were processed

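Polyadenylated RNA of 12 macrophage cultures was sequenced as 150 bp read pairs. The authors aligned reads to the mouse genome (mm10, GRCm38.p6, per the labels) with TopHat2 2.0.9 and counted them per gene with HTSeq 0.6.1. The deposited counts are raw whole numbers, and the FPKM values deposited beside them were scaled by the authors for gene length and depth. The strand setting is not given in the sources used here.

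The 46 genes and the 5 related lists were chosen with earlier results of these data known. Counts were tested with edgeR 4.0.16 (R 4.3.3) after TMM scaling and filterByExpr (minimum count 10, minimum total 15), by the quasi-likelihood test in the 6 libraries of each comparison (12 for the interaction). P-values were adjusted by Benjamini-Hochberg over all 12863 to 13455 genes tested, and calls were made at 0.05. Values after ± are SE on the log2 scale. The script was tested on simulated data. FPKM per library shows levels, and the exact permutation test of FPKM was two-sided. Alternatives were DESeq2 1.42.0, its size factors, total counts, other filters, limma 3.58.1 on log2(FPKM + 1) or log2(FPKM + 0.1), a replicate block, one fit of 12 libraries and each library left out. Library values were given for the most abundant and most changed gene of each role and for every gene not called on both coatings, and the few others followed the same form.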

Additional observations from a re-analysis of the deposited data

How the results depend on the processing

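Relative to edgeR's counts of the 46 genes, the count called higher by the antibody without fibronectin was 7 with limma on unfiltered log2(FPKM + 1), where more genes are tested, and 10 to 28 when 1 library was left out (10 without IgG replicate 3, 28 without anti-ITGA5 replicate 2). The count called lower was 1 (Cdt1) in place of 0 with DESeq2, a filter of 10 counts in every library, the replicate block and all 12 libraries in one fit, and 0 to 1 with a library left out. With fibronectin the count called higher was 25 with total counts, 30 with the replicate block, 5 with unfiltered limma and 11 to 29 with a library left out (29 without anti-ITGA5 replicate 3). Over these alternatives, all genes called higher ranged from 684 to 1992 without and from 1025 to 2407 with fibronectin. The cause of these shifts was not tested. For the coating in IgG, the replicate block gave 1 gene (Pcna) in place of 0. Signs turned only in genes not called. Without fibronectin, total counts gave 0.028 for Orc1 and 0.0054 for Mcm4. With a library left out, Orc1 ranged from -0.041 to 0.012, Cdc6 from -0.0034 to 0.041, Mcm6 from -0.018 to 0.054 and Mcm3 from -0.0080 to 0.042. With fibronectin, Cdc6 ranged from -0.11 to 0.014, Mcm3 from -0.015 to 0.083, Mcm6 from -0.011 to 0.069, Pcna from -0.012 to 0.081 and Rpa2 from -0.014 to 0.13. No called gene changed sign. 6 genes without and 5 with fibronectin were called under every alternative. Total counts moved the median of all genes from 0.0090 to 0.049 and from -0.0038 to 0.037. The replicate numbers were not taken as pairs, since same-numbered libraries correlated in their deviations at 0.032 to 0.087 without and 0.064 to 0.15 with fibronectin, although each of the 6 libraries correlated best with its own number in both antibody comparisons. Over the 46 genes, the mean log2 deviation of replicates 1, 2 and 3 from their group was 0.043, 0.076 and -0.12 in IgG and 0.040, 0.081 and -0.12 in anti-ITGA5 with fibronectin, in the same order, and -0.0028, 0.067 and -0.064 and 0.045, -0.028 and -0.018 without, where the order differed. With the block, 24 genes were called without and 30 with fibronectin. Fen1, with 150 counts in its lowest library, had an SE of 0.10 on both coatings.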
